A study of Mus musculus with 6 samples.

Results

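Antigen presentation on MHC class II and costimulation of T cells were followed through 10 genes, chosen by symbol for their roles in presentation and costimulation. All 10 were measured, among 25206 probe sets. They were the class II chain genes H2-Aa, H2-Ab1 and H2-Eb1, the peptide exchange genes H2-DMa, H2-DMb1 and H2-DMb2, the invariant chain gene Cd74, the transactivator gene Ciita, and the costimulatory ligand genes Cd80 and Cd86. The RNA came from mouse macrophages differentiated out of bone marrow. A group of 3 samples had received JG-98, a compound that inhibits chaperones of the Hsp70 family, for 16 hours. Its dose was 0.3 micromole, an amount for which no volume is given. The other 3 samples were titled as controls. The labels name no strain, age or sex of mouse, no vehicle and no stimulus, and they do not say whether the replicates were separate cultures or animals.

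MHC class II molecules are pairs of an alpha and a beta chain that carry peptides from the endosome to the cell surface, where CD4 T cells read them. The invariant chain CD74 guides new pairs to the endosome and plugs their groove, and H2-DM exchanges the remaining fragment for antigenic peptide. Transcription of these genes depends on the coactivator CIITA, which binds no DNA itself and is recruited to a conserved promoter module of X and Y boxes, and in macrophages interferon gamma is the classic inducer of CIITA. CD80 and CD86 bind CD28 and CTLA-4 on T cells and are regulated apart from class II.

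None of the 10 genes passed the test for a change with JG-98. H2-Aa and H2-Ab1, which encode the chains of the I-A molecule, lay below every control array on all JG-98 arrays, and Cd86 lay above every control array. H2-Eb1, the H2-DM genes, Cd74, Ciita and Cd80 had JG-98 and control values that overlapped. Of the 10 genes, 0 passed a limma adjusted p of 0.05, where 0.0397% of all probe sets did, and 3 had an unadjusted p under 0.05, where 8.32% of all probe sets did. By direction, 967 of all 25206 probe sets were higher and 1130 lower at that unadjusted p. The counts given below for lists of genes are to be read beside these. Every JG-98 array lay below every control array in 2 of the 10, against 8.44% of all probe sets, and above every control array in 1 of the 10, against 7.12%. The median log2 difference of the 10 genes was -0.097, beside 0.00080 for all probe sets, and 9 of the 10 were lower, beside 49.7% of all probe sets. Every log2 difference given here is JG-98 minus control.

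The JG-98 array of replicate 3 stood apart from the rest, with correlations of 0.992 to 0.993 with the other arrays, which correlated with each other at 0.995 to 0.996, and with an array median of 4.24 on the log2 scale where the other 5 had 4.08 to 4.15. Where leaving it out moved a difference of 1 of the 10 genes by over 1.5 times, the value without it is given. Of the macrophage markers, 10 of 12 were measured. Their mean level per array was 10.18 to 10.26 on JG-98 arrays and 10.29 to 10.33 on control arrays. The cells thus carried their labelled identity on every array, while the mean was slightly lower with JG-98. Of the 10 measured markers 8 were lower, beside 49.7% of all probe sets. Every JG-98 array lay below every control array in 5 of them, against 8.44%, and above in 1, against 7.12%. None passed the limma adjusted p. At an unadjusted p under 0.05, 0 were higher and 2 lower, where 967 and 1130 of all 25206 probe sets were. The part of these shifts in the class II values was not tested. Markers of other cells that express class II were dim. The 12 dendritic cell markers had mean levels of 3.25 to 3.44 on JG-98 arrays and 3.21 to 3.28 on control arrays, and the 9 measured B cell markers had 2.77 to 3.10 on JG-98 arrays and 2.90 to 2.98 on control arrays. The T and NK cell markers and the neutrophil markers lay at 2.87 to 3.30 with JG-98 and 2.77 to 3.31 in control samples. The highest single value among all these markers of other cells was 4.88, for Cd22. In RNA from a whole culture, fewer cells of a type and less RNA per cell cannot be told apart.

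Promoter sequences are shown for H2-Aa and H2-Eb1, chain genes that did and did not separate between the groups, and for the close copies H2-DMb1 and H2-DMb2. They are RefSeq sequences of build GRCm38.p6, read on the gene's strand from position -130 to -31, counted from the annotated start. Capitals mark GCAAC, letters of the X box (here the X core), and ATTGG, the Y box, where these letters stand on the gene's strand. The H2-Aa stretch is chr17:34287854-34287953 on the minus strand, and those of H2-Eb1, H2-DMb1 and H2-DMb2 are chr17:34305737-34305836, chr17:34153061-34153160 and chr17:34145119-34145218 on the plus strand.
H2-Aa: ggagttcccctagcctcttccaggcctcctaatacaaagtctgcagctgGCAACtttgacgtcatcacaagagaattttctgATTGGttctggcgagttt
H2-Eb1: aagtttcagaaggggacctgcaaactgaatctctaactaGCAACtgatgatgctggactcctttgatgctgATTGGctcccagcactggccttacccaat
H2-DMb1: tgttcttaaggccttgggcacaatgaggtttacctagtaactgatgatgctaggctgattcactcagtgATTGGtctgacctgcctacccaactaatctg
H2-DMb2: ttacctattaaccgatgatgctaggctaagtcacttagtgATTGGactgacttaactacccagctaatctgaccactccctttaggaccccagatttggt

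The X core began at -81 in H2-Aa and the Y box at -48, a spacing of 33 bases. H2-Eb1 had the same pair at -91 and -59, 32 bases apart, and a Y box on the other strand at -35. H2-DMb1 and H2-DMb2 had the Y box at -61 and -90 and no exact GCAAC in their windows. Ahead of the Y box, where H2-Eb1 reads GCAACtgatgatgct, H2-DMb1 reads gtaactgatgatgct and H2-DMb2 reads ttaaccgatgatgct. Only exact letters were searched, so the lack of GCAAC does not show that these promoters lack an X box. TGACG, part of a cyclic AMP response element such as the X2 box of some class II promoters can hold, began at -74 in H2-Aa, between the X core and the Y box, and overlapped a copy on the other strand. It was absent from the windows of the other 3 genes.

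Windows of 300 bases, 250 before and 50 after the start, were used for 6 of the 10 genes. H2-Ab1, Ciita and Cd86 were not searched, so H2-Aa was the only searched gene of the 10 that separated between the groups. Any window on the chromosome of Cd74 was left out for the named genes, so Cd74 was not searched for the motifs. Over all 32851 windows of 300 bases, the Y box was present in 37.4%, the X core in 35.2% and TGACG in 20.8%, with both strands searched. An X core starting 15 to 60 bases ahead of a Y box was present in 1.94%, and it was present in the windows of H2-Aa and H2-Eb1 as well as those of H2-Oa and H2-Ob, the chains of H2-DO. The Cd80 window held no Y box. H2-DMa had 2 annotated starts, and only the window of the second held a Y box, at -198. The motifs and the spacing were chosen after the sequences had been seen. H2-Aa and H2-Eb1 thus had the same pair of motifs in these windows, with log2 differences of -0.60 and -0.06 whose own difference was not tested, and a match of letters does not show that a factor bound there.

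Ciita, the regulator of the group, was at 4.53, 4.45 and 4.57 on the log2 scale on the JG-98 arrays, against 4.58, 4.51 and 4.49 on the control arrays. The values of the groups overlapped. The log2 difference was -0.01 ± 0.068 (SE, n = 3 each), with a 95% interval of -0.17 to 0.15 (limma adjusted p = 0.98), and with 1 array left out it ran from -0.038 (JG-98 replicate 3 omitted) to 0.02 (JG-98 replicate 2 omitted). The median of all probe sets was 4.12, and whether Ciita or any other of the 10 genes was detected above background was not tested. Only 4 of the 10 had a mean level of at least 6, and H2-Aa, H2-Ab1 and Cd86 did not. Ciita has several promoters used in different cells, and 1 value per gene does not separate their transcripts.

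H2-Aa, the alpha chain of I-A, was at 5.02, 5.27 and 4.62 on the log2 scale with JG-98, against 5.44, 5.79 and 5.47 in control samples. All 3 JG-98 values were lower, and the lowest was on the array of replicate 3. The log2 difference was -0.60 ± 0.18 (SE, n = 3 each), a mean level 1.51-fold lower, with a 95% interval of -1.03 to -0.16 (limma adjusted p = 0.48). Without JG-98 replicate 3 the difference was -0.42 (limma adjusted p = 0.40).

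H2-Ab1, the beta chain that pairs with H2-Aa, was at 5.69, 5.47 and 4.95 with JG-98, against 5.82, 5.86 and 5.82 in control samples. The JG-98 values spread widely (SD 0.38, n = 3) where the control values hardly differed (SD 0.021, n = 3), and the groups did not overlap. JG-98 minus control gave -0.46 ± 0.18 (SE), with a 95% interval of -0.89 to -0.03 (limma adjusted p = 0.57). Its size depended on JG-98 replicate 3, since without that array it was -0.25 ± 0.086 (SE, limma adjusted p = 0.40). The remaining JG-98 values still lay below every control value.

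H2-Eb1, the beta chain of the I-E molecule, was at 4.90, 4.82 and 5.06 with JG-98, against 5.03, 4.88 and 5.06 in control samples. The groups overlapped, and replicate 3 of either group had the same deposited value, as did 120 of all 25206 probe sets on that pair of arrays. The log2 difference was -0.06 ± 0.092 (SE, n = 3 each), with a 95% interval of -0.29 to 0.16 (limma adjusted p = 0.90). It was -0.01 with JG-98 replicate 2 omitted and -0.13 with JG-98 replicate 3 omitted, and omitting control replicate 2 or 3 gave -0.12 or -0.03. The log2 value of H2-Aa minus that of H2-Eb1 on the same array was 0.12, 0.45 and -0.44 with JG-98, against 0.40, 0.91 and 0.40 in control samples. These differences, whose own level has no meaning because the probes differ, overlapped, so the 2 genes were not separated array by array.

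Cd74, the invariant chain, was at 6.90, 7.28 and 7.11 on the log2 scale with JG-98, against 7.20, 7.38 and 7.26 in control samples. The groups overlapped, with JG-98 replicates 1 and 3 below all control values. JG-98 minus control gave -0.18 ± 0.11 (SE, n = 3 each), with a 95% interval of -0.45 to 0.08 (limma adjusted p = 0.73). Without JG-98 replicate 1, the lowest array, it was -0.083.

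H2-DMa and H2-DMb1 encode the chains of the peptide exchange factor H2-DM, and neither moved beyond its spread. H2-DMa was at 6.45, 6.43 and 6.18 with JG-98, against 6.49, 6.31 and 6.38 in control samples, differing by -0.04 ± 0.098 log2 units (SE, n = 3 each, limma adjusted p = 0.95). H2-DMb1 was at 7.26, 7.26 and 7.04 with JG-98, against 7.38, 7.16 and 7.25 in control samples, differing by -0.08 ± 0.096 log2 units (SE, n = 3 each, limma adjusted p = 0.88). Their 95% intervals were -0.27 to 0.20 and -0.31 to 0.15. In both genes JG-98 replicate 3 gave the lowest value of the 6 arrays, and without it the differences were 0.05 in H2-DMa and -0.0053 in H2-DMb1. Omitting control replicate 1 gave 0.01 and -0.02, and omitting control replicate 2 gave -0.08 and -0.13. H2-DMa also moved to -0.08 when either JG-98 replicate 1 or 2 was omitted.

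H2-DMb2, an alternative beta chain of H2-DM, varied widely within both groups (SD 0.36 with JG-98 and 0.48 in control samples, n = 3 each). It was at 4.80, 5.39 and 4.74 with JG-98, against 5.91, 5.04 and 5.12 in control samples. The log2 difference of -0.38 ± 0.28 (SE, n = 3 each) had a 95% interval of -1.04 to 0.28 (limma adjusted p = 0.78), and it was -0.10 without control replicate 1, the highest array, and -0.58 without JG-98 replicate 2. H2-DMb1 and H2-DMb2 are close copies, in whose promoters 91 of 105 bases were identical when aligned on the Y box without gaps. Their transcripts may share probes, so the split between them is uncertain.

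**Figure D1:**
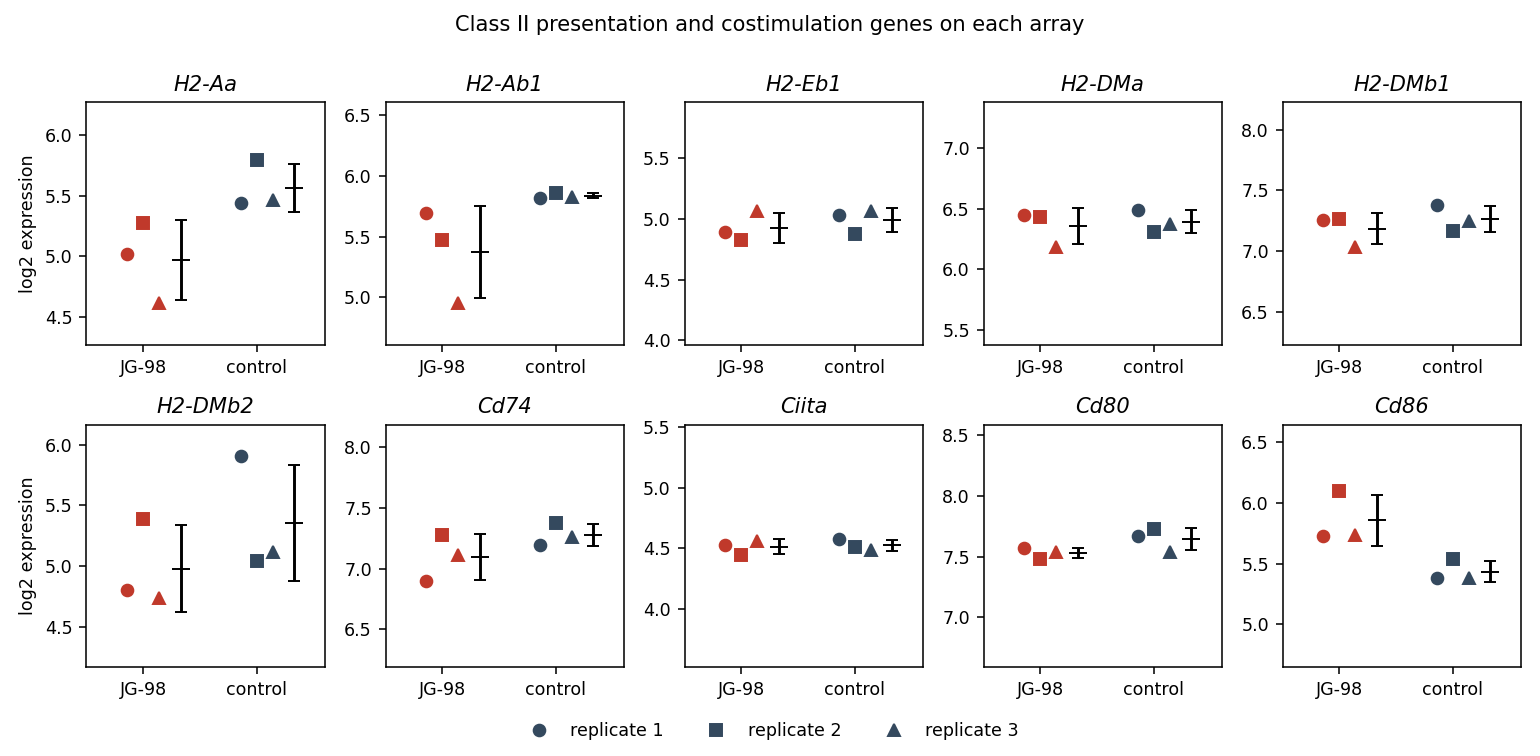
Log2 expression of each gene on the 3 JG-98 arrays (red, left) and the 3 control arrays (dark, right), with the mean and SD of each group as a bar beside its points and marker shapes for the replicate number; every panel spans the same range of log2 units. H2-Aa and H2-Ab1 lie below all control values with JG-98, Cd86 lies above them, and the other 7 genes overlap.

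Of the costimulatory genes, Cd86 separated between the groups and Cd80 did not. Cd86, a CD28 ligand present early in activation, was at 5.73, 6.10 and 5.74 on the log2 scale with JG-98, against 5.38, 5.54 and 5.38 in control samples. All JG-98 values were higher, and the highest was on replicate 2. The log2 difference was 0.42 ± 0.12 (SE, n = 3 each), a mean level 1.34-fold higher, with a 95% interval of 0.14 to 0.71 (limma adjusted p = 0.43). With any 1 array left out it was 0.30 to 0.49, the lowest of these without JG-98 replicate 2.

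Cd80, the other CD28 ligand, was at 7.57, 7.48 and 7.54 with JG-98, against 7.67, 7.72 and 7.54 in control samples. The groups met at control replicate 3. JG-98 minus control gave -0.11 ± 0.074 (SE, n = 3 each), with a 95% interval of -0.29 to 0.06 (limma adjusted p = 0.75), so a difference of the size seen in Cd86 lies outside this interval. Without control replicate 2 it was -0.075. The log2 value of Cd86 minus that of Cd80 on the same array was -1.84, -1.38 and -1.80 with JG-98, against -2.29, -2.19 and -2.16 in control samples. These values did not overlap, and their mean was 0.54 higher with JG-98. Cd86 had already separated by itself, so that lack of overlap is no independent result, and no test is given for it.

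The mean log2 level of the 7 class II presentation genes other than Ciita was 5.86, 5.99 and 5.67 on the JG-98 arrays, against 6.18, 6.06 and 6.05 on the control arrays. Minus the mean of Cd80 and Cd86 on the same array, it was -0.79, -0.80 and -0.97 with JG-98, against -0.34, -0.57 and -0.41 in control samples. Neither measure overlapped between the groups, and the second was 0.41 lower with JG-98 on average. It was 0.35 to 0.47 lower with any 1 array left out. These means join unlike genes: H2-Aa, H2-Ab1 and H2-DMb2 had log2 differences of -0.60, -0.46 and -0.38 while the other 4 class II genes ranged from -0.18 to -0.04, and Cd86 and Cd80 had differences of opposite sign. The genes were chosen with results of these data known, so no test is given for these means.

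**Figure D2:**
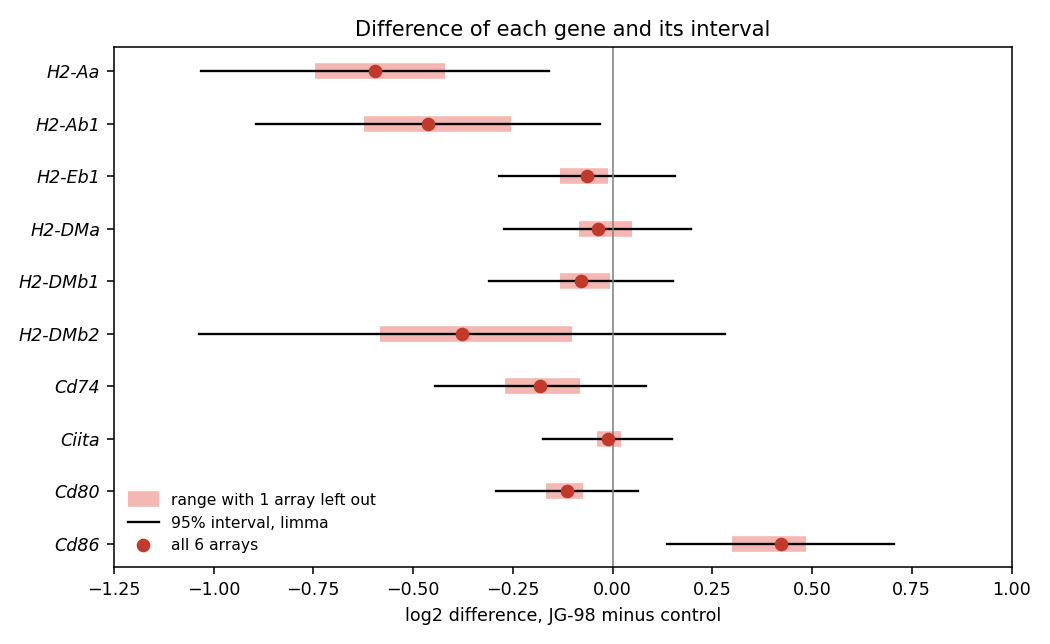
Log2 difference (JG-98 minus control) of each gene with its 95% interval from limma as a line and, as a shaded bar, the range of the difference when 1 of the 6 arrays is left out. The intervals of H2-Aa, H2-Ab1 and Cd86 do not include 0 before adjustment, and those of H2-DMb2 and H2-Aa are the widest in log2 units.

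The class II genes lie together in the H2 complex, interleaved with genes of class I presentation, so their neighbours offer a comparison by position. From H2-Oa to H2-Ea, 15 of the 16 annotated genes were measured. H2-Ab1 and H2-Aa stand next to each other among the measured genes, and the genes on either side of that pair, H2-Ob and H2-Eb1, had log2 differences of -0.06 ± 0.13 and -0.06 ± 0.092 (SE, n = 3 each). The immunoproteasome genes Psmb8 and Psmb9 and the peptide transporter genes Tap1 and Tap2, which serve class I presentation from the same region, differed by 0.02, -0.05, -0.06 and 0.0049. Small as its difference was, Tap1 lay below every control array on all JG-98 arrays. The neighbour Brd2 lay above every control array, with a log2 difference of 0.05. H2-Oa, the alpha chain of H2-DO, which restrains H2-DM, was at 3.90, 3.78 and 3.73 with JG-98, against 4.24, 4.01 and 4.01 in control samples. H2-Oa likewise lay below every control array with JG-98, with a log2 difference of -0.28 ± 0.092 (SE, n = 3 each, limma adjusted p = 0.50). No detection call was used here, so how far such dim genes stand above background is not known. H2-Ea, annotated in this reference as a transcribed pseudogene, and H2-Eb2 were at 2.5 to 3.3 on all arrays. All 4 class II genes outside the 10 (H2-Oa, H2-Ob, H2-Eb2 and H2-Ea) had negative log2 differences, except that H2-Ob turned to 0.06 with JG-98 replicate 3 omitted, to 0.0013 with control replicate 1 omitted and to 0.0056 with array weights. Their median was -0.09, with 0 calls and 1 of 4 lower at an unadjusted p under 0.05.

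**Figure D3:**
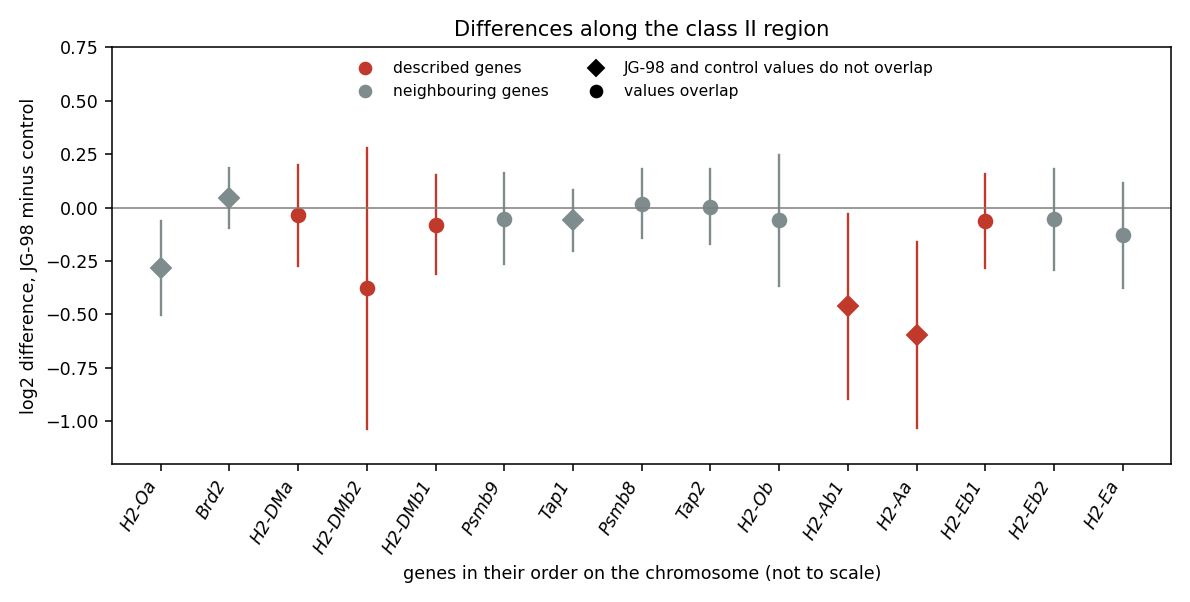
Log2 difference (JG-98 minus control) with its 95% interval for the 15 measured genes from H2-Oa to H2-Ea, in their order on the chromosome and not to scale; red marks the described class II genes, grey their neighbours, and diamonds the genes whose JG-98 and control values do not overlap. H2-Ab1 and H2-Aa have the lowest differences of the 15, at -0.46 and -0.60.

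Genes acting upstream of class II transcription had small differences, and none of those measured passed the test over all probe sets. Of 12 genes of class II transcription and ubiquitination, 0 were higher and 0 lower at a limma adjusted p under 0.05, with 0 higher and 2 lower at an unadjusted p under 0.05, and the median log2 difference was -0.04. Rfx5, a subunit of the RFX complex that binds the X box, was at 7.14, 7.14 and 7.002 with JG-98, against 7.22, 7.33 and 7.19 in control samples. Its log2 difference was -0.15 ± 0.076 (SE, n = 3 each), and that of the RFX subunit gene Rfxap was 0.11 ± 0.11, which was 0.02 with JG-98 replicate 1 omitted and 0.20 with JG-98 replicate 3 omitted. Prdm1, which encodes a repressor of CIITA transcription in plasma cells, was at 6.18, 6.22 and 6.30 with JG-98, against 6.43, 6.53 and 6.43 in control samples, differing by -0.23 ± 0.070 log2 units (limma adjusted p = 0.48). Marchf1, a ubiquitin ligase that removes class II and CD86 protein from the surface, was at 5.51, 5.50 and 5.54 with JG-98, against 5.65, 5.70 and 5.67 in control samples, differing by -0.16 ± 0.060 log2 units (limma adjusted p = 0.56). In Rfx5, Prdm1 and Marchf1, 3 of the 12 genes, the groups did not overlap, JG-98 being lower, against 8.44% of all probe sets. In 1 of the 12 every JG-98 array lay above, against 7.12%.

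Along the route from the interferon gamma receptor to Ciita, 10 of 11 listed genes were measured, 0 passed in either direction, and 1 was lower at an unadjusted p under 0.05, with a median log2 difference of -0.08. That gene was Irf1, a transcription factor that activates the inducible Ciita promoter, at 6.49, 6.38 and 6.50 with JG-98, against 6.69, 6.65 and 6.66 in control samples. Its log2 difference was -0.21 ± 0.066 (SE, n = 3 each, limma adjusted p = 0.49), with no overlap between the groups. Ifngr2, the signalling chain of the receptor, differed by -0.16 ± 0.070, Ifngr1, the ligand-binding chain, by -0.09 ± 0.064, and the kinase gene Jak2 by 0.13 ± 0.080. Ifngr1 differed by -0.06 without JG-98 replicate 3, and Jak2 by 0.06 without JG-98 replicate 2. Irf1 and both receptor genes were the 3 of the 10 measured genes with every JG-98 array below every control array, against 8.44% of all probe sets. Jak2 was the 1 with every JG-98 array above, against 7.12%. Ciita did not separate.

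Genes that prepare antigen for class II had small differences. Of 12, 0 passed in either direction, 1 was higher at an unadjusted p under 0.05 and the median log2 difference was 0.01. In 3 of the 12 every JG-98 array lay above every control array, against 7.12% of all probe sets. In 2 of the 12 every JG-98 array lay below, against 8.44%. Cathepsin S, the protease that trims the invariant chain, is encoded by Ctss, which was at 11.45, 11.42 and 11.37 with JG-98, against 11.41, 11.41 and 11.39 in control samples. Ctss was not among the genes with the smallest p and is given for its role, with its values seen. The tetraspanin gene Cd63 differed by 0.17 ± 0.067 (SE, n = 3 each), Cd82 by -0.14 ± 0.066, the protease gene Lgmn by -0.12 ± 0.063 and the cathepsin gene Ctsz by 0.10 ± 0.059. Of 17 class I presentation genes, 0 passed, 0 had an unadjusted p under 0.05 and the median log2 difference was 0.0049. Nlrc5, the class I counterpart of Ciita, differed by 0.23 ± 0.11, with values that overlapped, and by 0.35 without control replicate 3.

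Other ligands for T cell receptors of costimulation and inhibition showed differences in either direction. Of 20 listed genes 19 were measured, and 0 passed the limma adjusted p in either direction. At an unadjusted p under 0.05, 3 were higher and 1 lower, where 967 and 1130 of all 25206 probe sets were. The median log2 difference was 0.08. Cd274, which encodes the inhibitory ligand PD-L1, was at 7.51, 7.45 and 7.21 with JG-98, against 6.87, 6.97 and 6.75 in control samples. Its log2 difference of 0.53 ± 0.10 (SE, n = 3 each), 1.44-fold, did not pass over all probe sets (limma adjusted p = 0.29). It passed at an adjusted p of 0.033 in limma with an intensity trend, and at 0.025 in limma over the 8064 probe sets with a mean log2 level of at least 6, and in none of the other 12 settings.

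Cd276, encoding the B7 family ligand B7-H3, was at 7.13, 7.26 and 7.40 with JG-98, against 6.98, 6.96 and 6.99 in control samples, differing by 0.29 ± 0.084 log2 units (SE, n = 3 each, limma adjusted p = 0.44). Pvr, a ligand of TIGIT and CD226, was at 7.03, 7.13 and 6.84 with JG-98, against 6.74, 6.69 and 6.72 in control samples, differing by 0.29 ± 0.088 log2 units (limma adjusted p = 0.48). In Cd274, Cd276 and Pvr the groups did not overlap, JG-98 being higher. Of the 19 measured ligand genes, 5 lay above every control array on all JG-98 arrays, against 7.12% of all probe sets. Another 5 lay below every control array, against 8.44%, so the list had no single direction. Icam1, the ligand of the integrin LFA-1, was at 6.80, 6.81 and 6.77 with JG-98, against 7.07, 6.87 and 6.99 in control samples, differing by -0.19 ± 0.074 log2 units without overlap (limma adjusted p = 0.58).

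**Figure D4:**
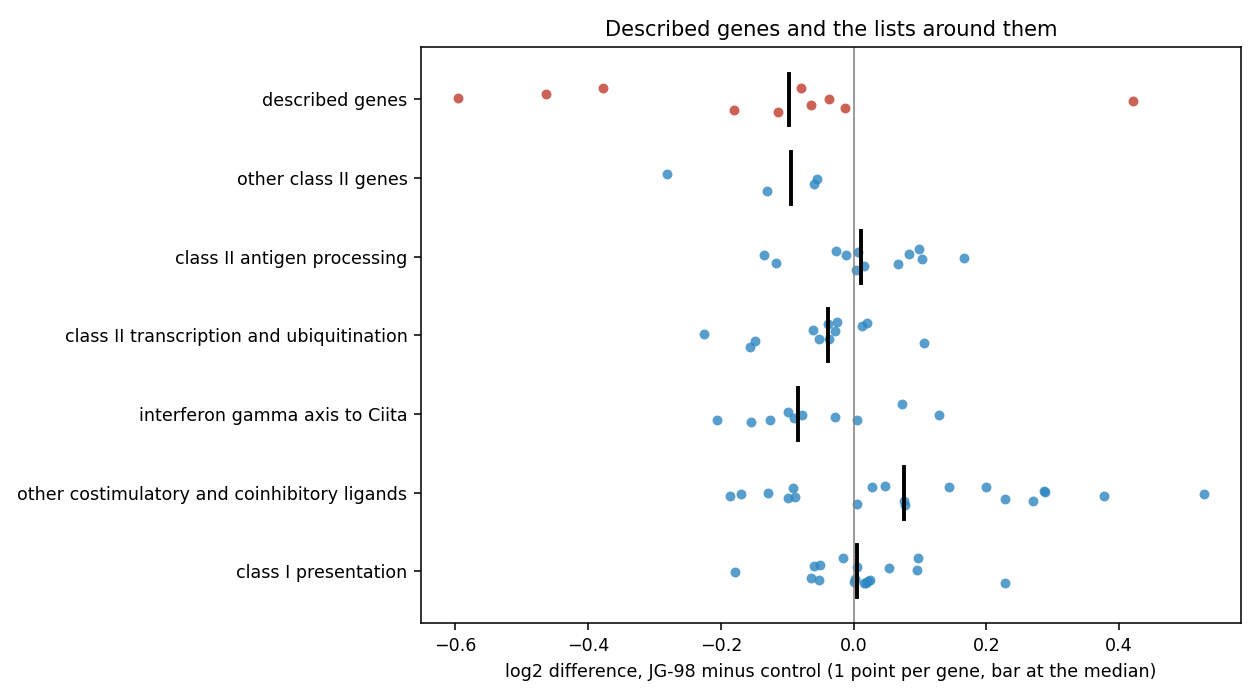
Log2 difference (JG-98 minus control) of the 10 described genes (red) and of the genes of 6 lists around them (blue), 1 point per gene with a bar at the median of each list; the vertical scatter within a row has no meaning. The medians run from -0.097 in the described genes to 0.08 among the other costimulatory and coinhibitory ligands, where Cd274 is the highest point at 0.53.

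Likeness to Cd74 and Cd86 was measured over the 6 arrays as the root mean square difference between mean-centred log2 values, among 11841 named genes at or above the median level. The genes most like Cd74 were Cdan1, Rfx2, Mettl21a, Ccdc18 and Akt2, at 0.048 to 0.067 log2 units, where Cd74 itself deviated from its own mean by 0.15. Those most like Cd86 were Gprc5b, Pop7, Sox7, Gadd45g and Pus7l, at 0.044 to 0.092, where Cd86 deviated by 0.25. None of the 10 described genes was among them. With 11841 genes compared over 6 arrays, some close matches are found by selection alone, so neither the names nor the absence of the 10 genes carries much weight.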

How the data were processed

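Total RNA of 6 samples was labelled with biotin and hybridised to single-colour Affymetrix arrays, as the labels' protocols state. Each probe set has a log2 value deposited by the authors for every array. The submitters' processing notes list RMA, affy and R 2.15.1 but give no role for any of them. RMA as generally defined aligns array distributions, which removes a shift common to all genes, and it compresses differences of dim probe sets. Of 25206 probe sets, 23185 had 1 symbol, 0 several and 2021 none, and symbols were updated by Entrez number through RefSeq (GRCm38.p6).

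Groups came from the sample titles. The test was limma's (version 3.58.1, R 4.3.3), two-sided, from eBayes after lmFit without covariates, with Benjamini-Hochberg adjustment over all 25206 probe sets at 0.05. The fit was also run on data simulated from limma's own model, so that run does not show how the test performs on these data. SE and 95% intervals are limma's moderated ones. Since the labels do not say that replicates were separate cultures or animals, p-values reflect only how these samples vary, possibly for technical reasons, and the number of arrays limits precision.

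The genes and lists were chosen with earlier results of these data known. All 10 genes are named, with the 4 genes of each list that had the smallest p at most, any other being marked as chosen with its values seen, while neighbours in the H2 region are named for their position and markers are given as lists. Other settings were 2 scalings, 2 filters on dim probe sets, intensity trend, robust prior, array weights (statmod 1.5.0), a block and leaving out each array.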

Additional observations from a re-analysis of the deposited data

How the results depend on the processing

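None of the 10 genes passed the limma adjusted p under any of the 14 other settings, and H2-Aa, H2-Ab1, H2-Eb1, H2-DMb1, H2-DMb2, Cd74, Cd80 and Cd86 kept their direction in all those in which they were tested. The filter at a mean log2 of 6 left 4 of the 10 genes. H2-DMa differed by 0.035 with array weights and by -0.084 to 0.049 with 1 array left out. Ciita differed by -0.038 to 0.021 with 1 array left out. H2-Ob differed by 0.0056 with array weights and by -0.16 to 0.064 with 1 array left out. These turns of sign lie within the standard errors. Genes of the 10 at an unadjusted p under 0.05 numbered 1 to 3 with 1 array left out (1 without control replicate 2), where 6.25% to 11.3% of all probe sets did, 2 with array weights, where 13.5% did, and 0 of the 4 tested with the filter at 6, where 22.5% of those kept did.

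Over all probe sets limma called 10, but 90 with the filter at the median level, 385 with the filter at 6, 254 with the intensity trend, 25 with array weights and 0 to 5 with 1 array left out. With the replicate block it called 0, with 1855 probe sets at an unadjusted p under 0.05. Same-numbered arrays deviated from their group means with correlations of 0.095, -0.13 and 0.10 across probe sets, so the numbers were not taken as pairing. The cause of these changes was not tested.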
